A study of Asparagus officinalis with 12 samples.

Results

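Stems of the asparagus 'Fengdao 2' were compared at 2 heights, 25 cm (H-25) and 10 cm (H-10), by RNA sequencing of the whole stem segment. These are 6 of the 12 libraries of the series, 3 at each height, and all 20352 of the 35166 genes in the table with an FPKM (fragments scaled to gene length and library size) of at least 1 in at least 3 of the 12 libraries were tested. The H-25 segment was cut 17 to 20 cm above the soil and the H-10 segment 3 to 6 cm above it, so a difference in stem age and a difference in position along the stem cannot be told apart here. The labels name no treatment, and both groups came from 3-year-old plants of this cultivar in rainproof greenhouses. Libraries are named by stage and replicate, so that H-25 r2 is replicate 2 of H-25. The column names give no cm, and H1 was taken as the 10 cm stem and H2 as the 25 cm stem. How many stems were pooled, if any, is not known from the sources used here. The p-values measure only the spread between libraries, which was estimated from all 12 libraries of the series in 1 model unless stated otherwise. A bulk segment holds epidermis, ground tissue and vascular bundles, and fewer cells of a type and less RNA per cell cannot be told apart for any gene below.

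An asparagus spear is a shoot that grows by adding cells near its tip and then lengthening them, and the older part below stiffens as fibres and vessels lay down thick, lignified walls. Lengthening is known to need enzymes that loosen the wall, a supply of sugar carried in the phloem, and hormones, of which auxin and gibberellin promote growth and abscisic acid and jasmonate are tied to stress and rest. Ethylene and calcium signals act on the same cells when a stem is touched, bent or wounded.

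By the recovered fragments, which are the FPKM values turned back into whole numbers, the H-25 libraries held 15031412 to 15594852 fragments and the H-10 libraries 13704146 to 16980659. At a gene length of 1 kb, 1 fragment gave 0.0522 to 0.0713 FPKM. One library stood apart from its stage. On the scale of log2(FPKM + 1) over all tested genes, H-25 r2 lay 112 from the mean of H-25 r1 and r3, whereas the means of the stages lay 88.8 apart. H-10 r1 lay 92.4 from the mean of its fellows, and the other 4 libraries 61.9 to 69.2. The R² values were taken over all 35166 genes in the table, of which 8142 were at 0 in all 6 libraries. H-25 r1 and r3 shared an R² of 0.983, and these had 0.921 and 0.923 with H-25 r2, within the 0.919 to 0.933 of H-25 r2 with the H-10 libraries. Results below are therefore also given without this library.

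**Figure D1:**
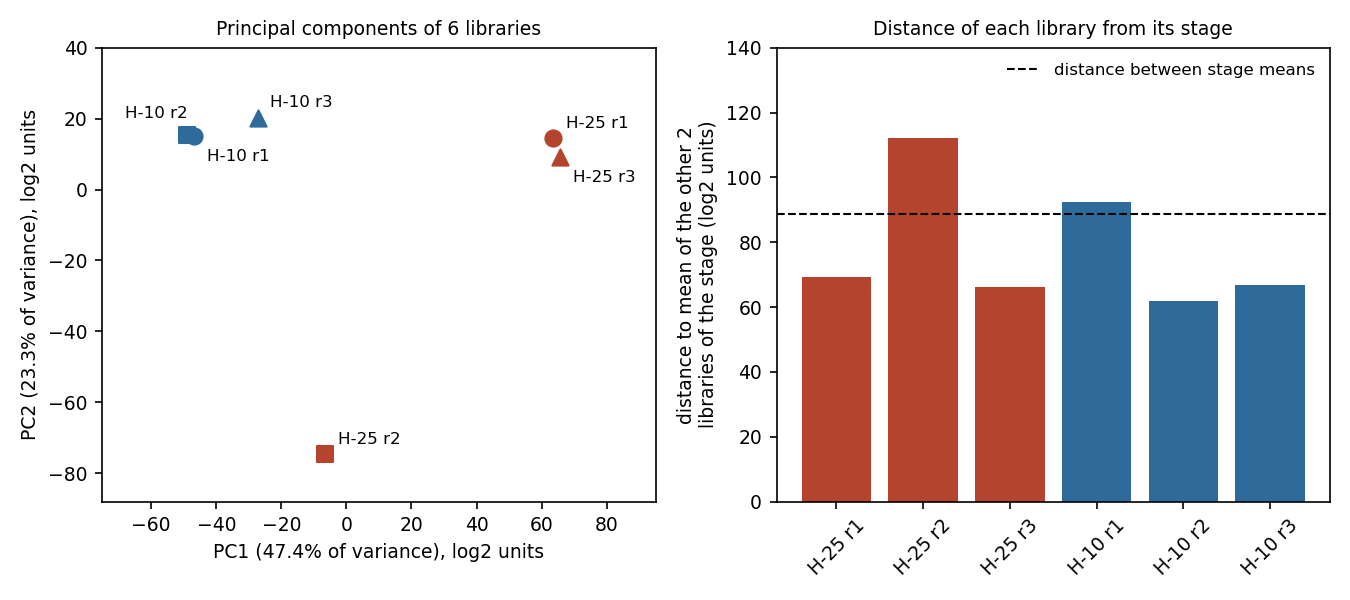
The 6 libraries over the 20352 tested genes: left, the first principal component (PC1, 47.4% of the variance) against the second (PC2, 23.3%) in log2 units, and right, the distance of each library from the mean of the other libraries of its stage, with a dashed line at the distance of the stage means (88.8). H-25 r2 lies away from H-25 r1 and r3 on both components and has the tallest bar, at 112.

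Markers of cell types differed between the libraries as well. Markers of dividing cells (39 tested, among them cyclins A and B and core histones) had summed FPKM of 4111 to 9453 at H-25 and of 3140.0 to 6699 at H-10, and 33 of the 39 had a positive difference. Histones made up most of these sums, as the 31 tested histone genes summed to 4053 to 9426 at H-25. The median log2 difference of the markers from the H-10 mean was 1.03, -0.34 and 0.81 in H-25 r1, r2 and r3, against -0.43 to 0.51 at H-10. Of 109 genes of mitotic cyclins, kinases and spindle proteins 70 had a positive difference (median 0.16). Markers of lignifying xylem and fibres (21 tested, 1 of them at 0 in all 6 libraries) summed to 156 to 627 at H-25, with the top value in replicate 2, and to 328 to 562 at H-10, and 4 of them had a positive difference. The xylem markers of the H-25 libraries thus lay on both sides of those of H-10. Markers of tissue with chloroplasts (34 tested) summed to 14053 to 20898 at H-25 and to 7627 to 15663 at H-10, 33 of them with a positive difference. Phloem markers (18 tested) summed to 79.2 to 205 at H-25 and to 179 to 254 at H-10, and epidermis markers (23 tested) to 177 to 261 at H-25 and to 194 to 269 at H-10. The labelled stem tissue had markers of all 5 kinds. A single marker of these lists, the histone H2B.11-like gene LOC109829913, was a DEG in the fit described next, and it was called without H-25 r2 but in none of the other fits without 1 library. The part of these cell types in the results below was not tested.

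Differentially expressed genes (DEGs) were defined by an adjusted p of at most 0.05 (limma, Benjamini-Hochberg over all tested genes) and a change of 1 or more in size on the log2(FPKM + 1) scale. Fold changes are H-25 minus H-10, and the added 1 understates those of low genes. The comparison had 905 DEGs, 4.45% of the tested genes, 313 higher at H-25 (1.54%) and 592 lower (2.91%). Of these, 575 had a description, 80 were long non-coding RNAs and 94 had no RefSeq ID. The 3 libraries of H-25 and the 3 of H-10 did not overlap in 307 of the higher and 580 of the lower DEGs, while 12.5% of all tested genes lay higher and 11.6% lower without overlap. The median size of the change was 1.51 on the log2 scale, and 76 DEGs were more than 4-fold higher and 167 more than 4-fold lower. The higher DEGs had a median gene length of 1055 bases and the lower ones of 1297, beside 1452 over all tested genes.

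The number of DEGs rested on single libraries. It was 2054 without H-25 r2 (895 higher and 1159 lower, 4.4% and 5.69% of the tested genes), 405 without H-25 r1, 338 without H-25 r3 and 367 without H-10 r2. It was 829 without H-10 r1 and 854 without H-10 r3. With all libraries and in each of these 6 fits, 284 genes were DEGs (1.4% of the tested genes), 79 higher at H-25 (0.388%) and 205 lower (1.01%). H-25 r2 was the lowest of its stage in 212 of the 313 higher DEGs and the highest in 296 of the 592 lower ones, and it lay within the range of the H-10 libraries in 6 and in 12 of them. With the values rescaled to TPM, the median over all tested genes became -0.18, and 188 DEGs were higher and 1008 lower, 15.7% higher against 34.6% with FPKM. A gene named as higher or lower below was called in each of the 6 fits that left out 1 library, unless the libraries it rested on are named. The reads behind genes of near-identical copies are uncertain, since the counting of reads shared by copies is not stated in any source used here.

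**Figure D2:**
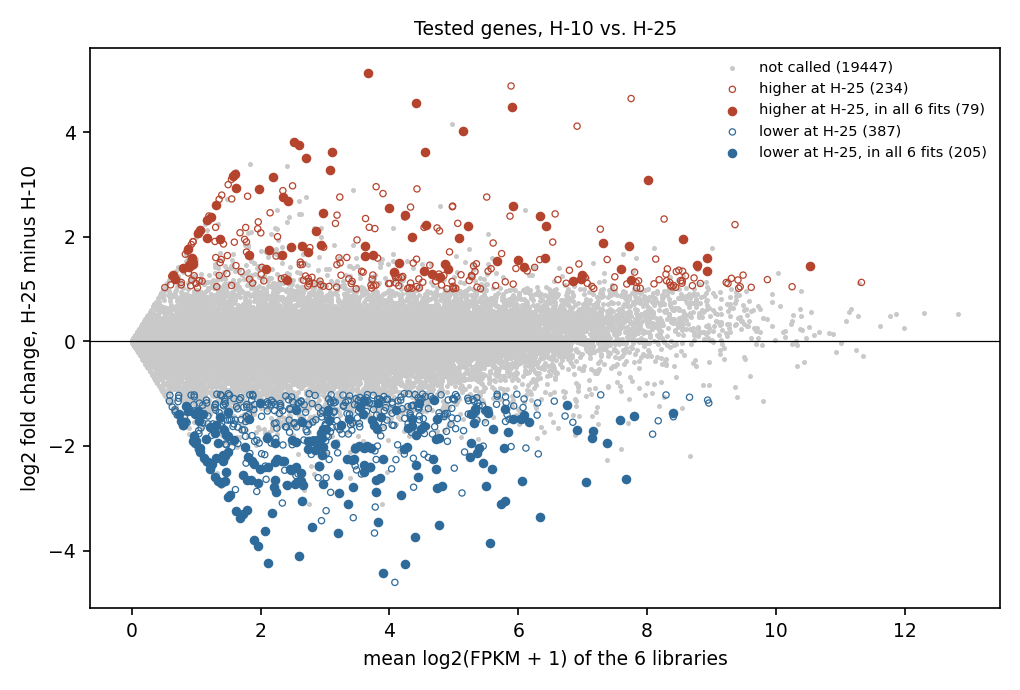
Log2 fold change (H-25 minus H-10) of each of the 20352 tested genes against its mean log2(FPKM + 1) over the 6 libraries. Open circles are DEGs, and filled circles those called in all 6 fits without 1 library (79 higher, 205 lower), and the filled circles below the line outnumber those above it.

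The largest rises joined single genes of flavonoid synthesis, stress response, purine and sulfur metabolism. The first of these did not stand for its list. Of 29 tested flavonoid and anthocyanin synthesis genes 1 was higher and 2 were lower (1 and 4 without H-25 r2). That was 10.3% of the list beside 4.45% of all tested genes. The median log2 fold change of the list was -0.73, and 21 members had a negative difference. The gene LOC109834252 (chromosome 3, 62922026 to 62925505) is described as flavonol synthase/flavanone 3-hydroxylase-like, of the enzymes that turn flavanones into flavonols. It had 270.4, 309 and 265 FPKM at H-25, against 26.5, 6.28 and 8.94 FPKM at H-10 (log2 fold change 4.49, adjusted p = 0.00102, standard error 0.54). The H-25 libraries lay close together and every one of them was more than 10 times above the highest H-10 library. A universal stress protein A-like gene (LOC109843013), of a family that binds nucleotides and is induced by many stresses, had 165, 145 and 118 FPKM at H-25, against 27.2, 2.84 and 5.28 FPKM at H-10 (log2 fold change 4.02, adjusted p = 0.00364). A FAD-dependent urate hydroxylase-like gene (LOC109839532), of the breakdown of purines, had 42.5, 13.6 and 42.5 FPKM at H-25, against 2.03, 0.577 and 2.06 FPKM at H-10 (log2 fold change 3.63, adjusted p = 9.72e-04). In all 3 genes the stages did not overlap, and H-25 r2 was the lowest of its stage in the urate hydroxylase gene alone.

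The gene of SRO3 (LOC109837020), a plant protein related to poly(ADP-ribose) polymerases, had 17.8, 22.96 and 22.2 FPKM at H-25, against 1.96, 0.426 and 0.695 FPKM at H-10 (log2 fold change 3.51, adjusted p = 4.74e-04, standard error 0.31). A homocysteine S-methyltransferase 1 gene (LOC109833766), of methionine synthesis, had 15.1, 9.31 and 14.1 FPKM at H-25, against 1.33, 1.02 and 1.02 FPKM at H-10 (log2 fold change 2.68, adjusted p = 2.00e-04). That of a gamma-glutamylcyclotransferase 2-2-like enzyme (LOC109821597), which breaks down glutathione, had 896, 580.4 and 829.6 FPKM at H-25, against 142, 73.9 and 65.2 FPKM at H-10 (3.09 on the log2 scale). H-10 r1 was the highest of its stage in all 3 and still below every H-25 library. A CCG-binding protein 1 gene (LOC109849773) had 156, 169 and 119.6 FPKM at H-25, against 48.9, 16.1 and 16.4 FPKM at H-10 (log2 fold change 2.59, adjusted p = 0.0021). Its name comes from Arabidopsis, where the protein binds a factor of the central cell of the ovule. The gene of indeterminate-domain 7-like (LOC109820796), a zinc finger transcription factor, had 68.2, 99.9 and 92 FPKM at H-25, against 32.9, 20.1 and 36.8 FPKM at H-10 (log2 fold change 1.53, adjusted p = 0.00536).

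Among the large rises some rested on single libraries. A Bowman-Birk type proteinase inhibitor gene (LOC109850661), whose product blocks digestive proteases of insects, had 469, 171 and 409.7 FPKM at H-25, against 119.9, 0 and 9.76 FPKM at H-10 (log2 fold change 4.88, adjusted p = 0.0377). It was not called without H-10 r2, H-10 r3, H-25 r1 or H-25 r3. The 3 early nodulin-93-like genes, of small membrane proteins of unsettled function, had a median log2 fold change of 2.95, and 2 of them rose (3 without H-25 r2). The highest, LOC109820675, had 1604, 574 and 1351 FPKM at H-25, against 151, 11.9 and 40.02 FPKM at H-10 (log2 fold change 4.64, adjusted p = 0.0233), and a further one, LOC109844968, had 61.6, 21.4 and 40.01 FPKM at H-25, against 4.64, 2.28 and 5.696 FPKM at H-10 (log2 fold change 2.95, adjusted p = 0.0128). Neither passed without H-10 r2, H-25 r1 or H-25 r3, and the first not without H-10 r3 either. In both, H-25 r2 was the lowest of its stage and still above every H-10 library.

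**Figure D3:**
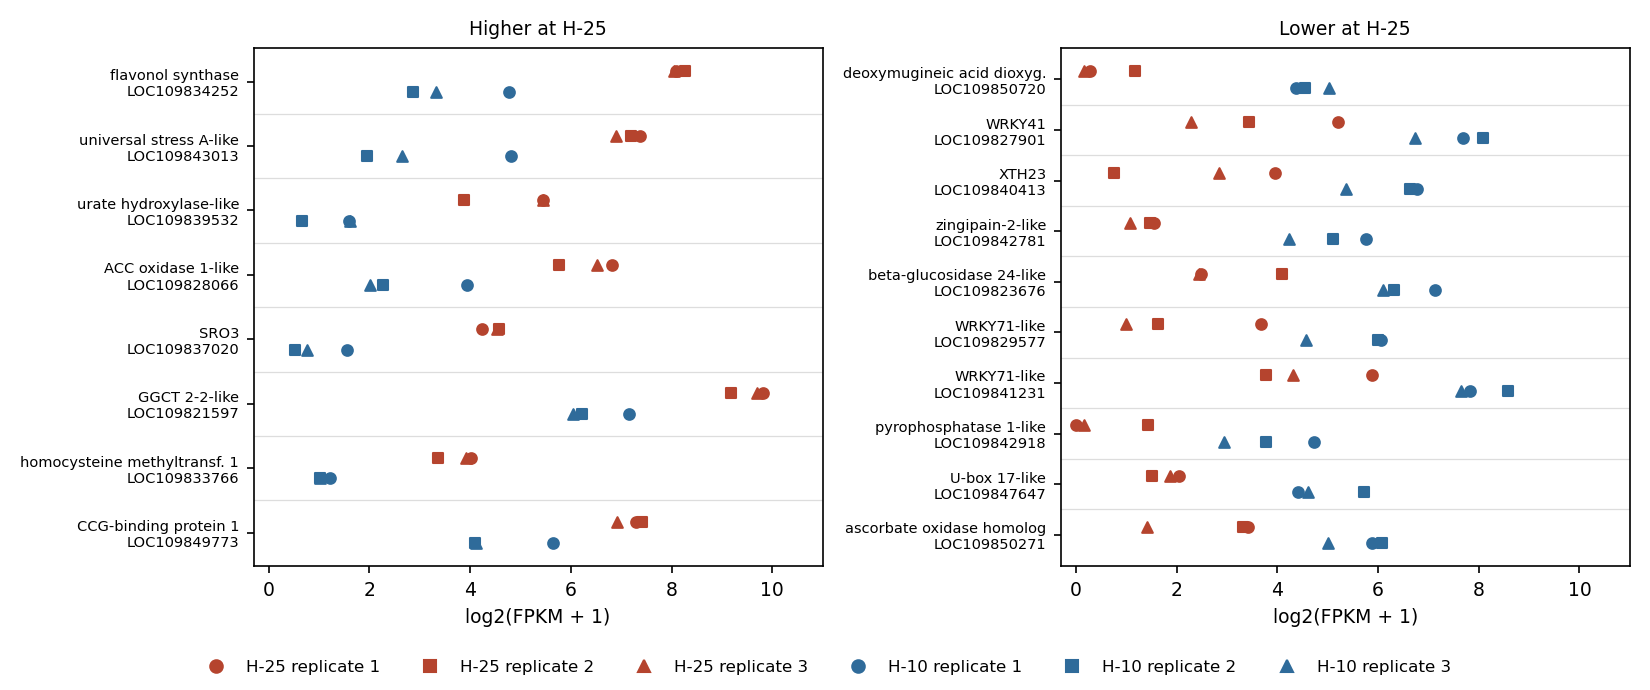
Log2(FPKM + 1) in each of the 3 H-25 (red) and 3 H-10 (blue) libraries for genes among the largest rises (left) and falls (right) that were called in all 6 fits without 1 library. Circles, squares and triangles are replicates 1, 2 and 3. In every gene the red and the blue symbols lie on separate sides, which the rule for naming these genes required.

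The largest fall by the naming rule was that of a peroxidase 64 gene (LOC109850189). It had 0.865, 9.31 and 1.11 FPKM at H-25, against 263, 140 and 14.8 FPKM at H-10 (log2 fold change -4.61, adjusted p = 0.0112). It was not called without H-10 r2, H-25 r1 or H-25 r3. Large falls called in all 6 fits without 1 library held a dioxygenase of metal acquisition, a protease, wall enzymes and transcription factors. A 2'-deoxymugineic-acid 2'-dioxygenase-like gene (LOC109850720), named after a barley enzyme that makes iron-binding phytosiderophores, had 0.214, 1.27 and 0.123 FPKM at H-25, against 19.6, 22.3 and 31.7 FPKM at H-10 (log2 fold change -4.10, adjusted p = 0.00226, standard error 0.57). The gene was thus near 0 in H-25 r1 and r3 and at a low level in replicate 2. A zingipain-2-like gene (LOC109842781), of a cysteine protease named from ginger, had 1.93, 1.75 and 1.101 FPKM at H-25, against 53.3, 33.4 and 17.9 FPKM at H-10 (log2 fold change -3.67, adjusted p = 7.21e-04). A beta-glucosidase 24-like gene (LOC109823676), of enzymes that release glucose from glycosides, had 4.58, 15.98 and 4.44 FPKM at H-25, against 139.8, 79.3 and 67.6 FPKM at H-10 (log2 fold change -3.52, adjusted p = 0.00285). The gene LOC109842918 (inorganic pyrophosphatase 1-like), named for a phosphatase that splits pyrophosphate, had 0, 1.69 and 0.119 FPKM at H-25, against 25.4, 12.7 and 6.67 FPKM at H-10 (log2 fold change -3.28, adjusted p = 0.00281). H-25 r2 was the highest of its stage in the beta-glucosidase and pyrophosphatase genes, and it was still below every H-10 library. Of flavonoid synthesis, a dihydroflavonol 4-reductase gene (LOC109843175) had 0.679, 0.629 and 0.897 FPKM at H-25, against 10.2, 39.2 and 6.13 FPKM at H-10 (log2 fold change -3.09, adjusted p = 0.02). It was not called without H-10 r2, H-25 r1 or H-25 r3.

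Genes of ubiquitin ligases, which mark proteins for breakdown, were among the falls too. The U-box gene *PUB17*-like (LOC109847647), known in Arabidopsis from cell death and defence, had 3.11, 1.86 and 2.65 FPKM at H-25, against 20.4, 52.02 and 23.5 FPKM at H-10 (log2 fold change -3.11, adjusted p = 7.21e-04). The RING-H2 gene *ATL2*-like (LOC109833644), an early defence gene, had 26.1, 12.9 and 12.7 FPKM at H-25, against 107, 166 and 90.6 FPKM at H-10 (log2 fold change -2.77, adjusted p = 0.00242). A BTB/POZ and TAZ domain gene, *BT1*-like (LOC109838234), had 3.37, 7.62 and 2.47 FPKM at H-25, against 41.9, 41.4 and 28.04 FPKM at H-10 (log2 fold change -2.89, adjusted p = 7.24e-04). Of the 455 tested F-box and E3 ligase genes as a whole, 6 were higher and 11 lower (18 and 24 without H-25 r2), 3.74% of the list beside 4.45% of all tested genes, so that these 3 do not stand for the list.

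Xyloglucan endotransglucosylases/hydrolases (XTHs) cut and rejoin xyloglucan, the hemicellulose that ties cellulose fibrils together. Of 23 tested genes of these enzymes 7 were lower (30.4% of the list), with a median log2 fold change of -0.96 beside 0 over all tested genes. These 7 were lower in each of the 6 fits without 1 library, which had 7 or 8 lower genes in 5 fits and 11 without H-25 r2. The number higher was 0 with limma, 0 at an unadjusted p of at most 0.05 and 0 with limma voom on the fragments, and with only these 6 libraries in the model 4 were lower. H-25 r2 did not share the fall of the list as a whole. The median log2 difference from the H-10 mean was -1.02, -0.16 and -1.27 in H-25 r1, r2 and r3, against -0.37 to 0.22 at H-10. The summed FPKM of H-25 r2 was 4276, above the 2167 to 3569 of H-10. *XTH23* LOC109840413 had 14.6, 0.694 and 6.15 FPKM at H-25, against 109, 98.8 and 40.3 FPKM at H-10 (log2 fold change -3.74, adjusted p = 0.00784, standard error 0.65). *XTH23* LOC109842267 had 7.39, 11.1 and 9.13 FPKM at H-25, against 48.3, 131 and 53.9 FPKM at H-10 (log2 fold change -2.81, adjusted p = 0.00235). *XTH12* LOC109843160 had 2.46, 7.47 and 1.39 FPKM at H-25, against 28.1, 38.04 and 19.1 FPKM at H-10 (log2 fold change -2.78, adjusted p = 0.00335). No library of one stage reached the range of the other in these genes.

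All 7 XTH DEGs lay on chromosome 5 of the RefSeq assembly Aspof.V1, where 10 of the 23 tested genes of this family lie. This was seen after their values were known and is a description. LOC109840406 (chromosome 5, 101624484 to 101626310), LOC109840405 (101630953 to 101632222) and LOC109842267 follow each other and end at 101640504. The first of them, which was chosen after its values were seen like the 3 genes named next, had 61.7, 59.6 and 36.4 FPKM at H-25, against 324, 499.6 and 236 FPKM at H-10 (log2 fold change -2.69, adjusted p = 0.00102). Its neighbour LOC109840405, the highest of the 7, had 108, 73.8 and 66.7 FPKM at H-25, against 461, 702 and 405 FPKM at H-10 (log2 fold change -2.63, adjusted p = 0.00238). Further along the same chromosome, LOC109840415 (101742320 to 101749414) had 0.474, 0.66 and 0.0506 FPKM at H-25, against 7.02, 9.07 and 5.51 FPKM at H-10 (log2 fold change -2.56, adjusted p = 0.00133). Far from these, LOC109843161 (4287500 to 4289463) lies beside LOC109843160 and had 1.51, 1.84 and 0.586 FPKM at H-25, against 5.71, 10.8 and 5.78 FPKM at H-10 (log2 fold change -1.86, adjusted p = 0.00525). The 7 genes thus ran from 5.51 to 702 FPKM in single H-10 libraries, and the stages did not overlap in any of these 4. The XTH with the highest level, LOC109823757, was not among them, with 919, 2558 and 680.0 FPKM at H-25, against 1152, 1241 and 772 FPKM at H-10, where H-25 r2 stood above all others.

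The other wall lists described here had smaller shares of DEGs, and their counts moved with H-25 r2. Of 72 hemicellulose and xylan synthesis genes 1 was higher and 4 lower, 6.94% of the list (2 and 19 without H-25 r2), and the lower count was 1 without H-10 r2 and 2 without H-25 r1 or H-25 r3. Among them *KATAMARI1* homolog LOC109836475, a xyloglucan galactosyltransferase, had 8.91, 15.03 and 8.39 FPKM at H-25, against 45.8, 45.5 and 26.9 FPKM at H-10 (log2 fold change -1.78, adjusted p = 0.00235). Of 122 wall glycosyl hydrolases 1 was higher and 6 were lower, 5.74% of the list beside 4.45% of all tested genes (3 and 20 without H-25 r2, 4 and 5 without H-10 r1), with the chitinase 10-like gene LOC109850687 at 1.92, 1.48 and 0.891 FPKM at H-25, against 7.47, 10.1 and 7.31 FPKM at H-10 (log2 fold change -1.94, adjusted p = 0.00154). Of 81 genes of pectin synthesis and modification 2 were higher and 1 was lower, 3.7% of the list (4 and 14 without H-25 r2, 2 and 2 without H-10 r1, 1 and 2 without H-10 r3, and 0 and 1 without H-10 r2, H-25 r1 or H-25 r3). The lower one, *galacturonosyltransferase 7* (LOC109836897), of pectin synthesis, had 20.7, 38.6 and 26.5 FPKM at H-25, against 74.96, 73.8 and 70.4 FPKM at H-10 (log2 fold change -1.37, adjusted p = 0.00248). The highest of the list, a polygalacturonase non-catalytic subunit gene (LOC109826024), had 1425, 1766 and 1156 FPKM at H-25, against 573, 213 and 229.6 FPKM at H-10 (log2 fold change 2.23, adjusted p = 0.0178). Of the fits without 1 library it passed only in those without H-10 r1 or H-25 r2. The pectinesterase 53 gene LOC109843873, of pectin de-esterification, had 16.2, 2.99 and 11.9 FPKM at H-25, against 1.67, 0.813 and 1.86 FPKM at H-10 (adjusted p = 0.022) and did not pass without H-10 r2, H-25 r1 or H-25 r3. The list of 15 expansins, proteins that loosen walls without cutting them, had 1 higher DEG (6.67% of the list, and 2 higher and 3 lower without H-25 r2), *EXPA11*-like LOC109849020, with 63.4, 46.1 and 60.1 FPKM at H-25, against 14.3, 5.77 and 21.2 FPKM at H-10 (log2 fold change 2.11, adjusted p = 0.0113), which was not called without H-25 r1 or H-25 r3. A cell wall protein gene, 14 kDa proline-rich *DC2.15*-like LOC109835597, had 912, 619 and 723 FPKM at H-25, against 165, 153 and 272 FPKM at H-10 (log2 fold change 1.96, adjusted p = 0.001). Its list of 37 wall glycoproteins had 2 higher and 0 lower DEGs, 5.41% (2 and 9 without H-25 r2), and 19 negative differences. The highest of that list, *DC2.15*-like LOC109839439, was not a DEG, with 2113, 3671 and 1685 FPKM at H-25, against 3573, 2628 and 2539 FPKM at H-10. Of the genes named in this paragraph that were called in all 6 fits, the *DC2.15*-like gene LOC109835597 was the one higher at H-25.

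Tubulins form the microtubules along which cellulose is laid down. Of 57 tested genes of the tubulin and actin list 3 were DEGs, all lower, a share of 5.26% near the 4.45% of all tested genes (3 higher and 8 lower without H-25 r2, and 1 lower without H-10 r2, H-25 r1 or H-25 r3). They were the tubulin alpha chain genes LOC109833162 and LOC109849014 and a formin-like protein 8 gene, LOC109822253, and none was an actin gene. LOC109849014 was not called without H-10 r2, H-10 r3, H-25 r1 or H-25 r3, and LOC109822253 not without H-10 r1, H-10 r2, H-25 r1 or H-25 r3. A tubulin alpha chain gene (LOC109833162) had 198, 287 and 159 FPKM at H-25, against 486, 627 and 523 FPKM at H-10 (log2 fold change -1.37, adjusted p = 0.0076). In this gene every H-25 library lay below every H-10 library, and H-25 r2 was the closest to H-10.

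WRKY proteins are plant transcription factors best known from defence, wounding and senescence. Of 38 tested *WRKY* genes 11 were lower (28.9% of the list), with a median log2 fold change of -0.69, 28 had a negative and 10 a positive difference. The number higher was 0 with limma, 0 at an unadjusted p of at most 0.05 and 0 with limma voom. The count was 12 without H-25 r2, but 6 without H-10 r2 and 5 without H-25 r3, and 2 with only these 6 libraries in the model, and 5 were called in all 6 fits without 1 library. *WRKY41* (LOC109827901, unplaced sequence, 83423 to 84715) had 35.9, 9.8 and 3.86 FPKM at H-25, against 204, 269 and 105.4 FPKM at H-10 (log2 fold change -3.86, adjusted p = 0.0035, standard error 0.58). The *WRKY71*-like gene LOC109841231, the highest of the family, had 57.8, 12.7 and 18.97 FPKM at H-25, against 225, 381 and 199 FPKM at H-10 (log2 fold change -3.36, adjusted p = 0.00252). A further *WRKY71*-like gene, LOC109829577, had 11.8, 2.08 and 0.985 FPKM at H-25, against 65.6, 63.4 and 22.8 FPKM at H-10 (log2 fold change -3.45, adjusted p = 0.00536). H-25 r1 was the highest of its stage in all 3 and still below every H-10 library, and H-25 r2 did not stand out.

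NAC factors, of which many act in secondary walls and senescence, had 5 DEGs among 41 tested genes, all lower (12.2% of the list beside 4.45% of all tested genes, median -0.44). The count was 8 without H-25 r2, 3 without H-25 r1 and 1 without H-10 r1, H-10 r2 or H-25 r3. The median log2 difference from the H-10 mean was -0.57, -0.07 and -0.47 in H-25 r1, r2 and r3, against -0.12 to 0.16 at H-10. *NAC68*-like LOC109831587, the highest of the family, had 81.7, 70.8 and 49.8 FPKM at H-25, against 262, 272 and 139.7 FPKM at H-10 (log2 fold change -1.69, adjusted p = 0.00792). Of 36 bZIP genes 3 were lower (8.33% of the list, and 5 without H-25 r2), and 2 of them were of the kind of *bZIP53*, which in Arabidopsis acts in amino acid metabolism under low energy. LOC109819674 had 72.9, 93.1 and 69.7 FPKM at H-25, against 316, 257 and 208 FPKM at H-10 (log2 fold change -1.71, adjusted p = 8.44e-04, standard error 0.19). LOC109831884 had 23.4, 27.9 and 22.03 FPKM at H-25, against 59.6, 71.9 and 58.4 FPKM at H-10 (log2 fold change -1.34, adjusted p = 0.00129). Both were even within each stage.

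Single genes of other transcription factor families fell as well. *Scarecrow-like 9* (LOC109829853), of the GRAS family, had 17.98, 23.02 and 15.3 FPKM at H-25, against 87.5, 133 and 52.5 FPKM at H-10 (log2 fold change -2.14, adjusted p = 0.00132). The CCCH zinc finger gene LOC109846696 (*C3H33*-like) had 92.7, 98.6 and 64.2 FPKM at H-25, against 255, 497 and 269 FPKM at H-10 (log2 fold change -1.94, adjusted p = 0.00132). The Myb-type genes *PHL7*-like (LOC109840165), of a family that includes phosphate starvation regulators, and *Myb4*-like (LOC109839693), of a family of repressors of phenylpropanoid synthesis, changed by -2.04 and -2.29 on the log2 scale. *PHL7*-like had 3.88, 6.24 and 3.58 FPKM at H-25, against 30.2, 17.4 and 18.6 FPKM at H-10, and *Myb4*-like 0.755, 0 and 0 FPKM at H-25, against 4.56, 7.14 and 3.49 FPKM at H-10. *bHLH148*-like (LOC109834486), known in rice from the jasmonate response, had 2.26, 0.0678 and 0.857 FPKM at H-25, against 17.6, 11.2 and 6.102 FPKM at H-10 (log2 fold change -2.65, adjusted p = 0.00557). Of 81 MYB genes 1 was higher and 5 were lower, 7.41% of the list beside 4.45% of all tested genes (0 and 10 without H-25 r2), and 3 were lower without H-10 r1, H-10 r2 or H-25 r3. Of 65 bHLH genes 2 were higher and 3 lower, 7.69% of the list (4 and 6 without H-25 r2). Of 118 zinc finger genes 2 were higher and 3 lower, 4.24% of the list (4 and 4 without H-25 r2). The falls named here thus do not stand for these 2 lists.

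Receptor-like kinases sense signals at the cell surface, and most members of the list were not DEGs. Of 289 receptor-like kinase genes 4 were higher and 19 lower (7.96% of the list), and 1 and 8 of them in all 6 fits without 1 library. The counts were 5 and 35 without H-25 r2, and the lower count was 9 without H-10 r2, 10 without H-25 r1 and 9 without H-25 r3, with 1 higher in these 3 fits. A pair of L-type lectin receptor kinase genes of type IV.1, which sense molecules outside the cell, lie side by side on chromosome 3 (16091977 to 16098014). LOC109833175 had 9.11, 12.03 and 4.28 FPKM at H-25, against 60.7, 76.3 and 31.4 FPKM at H-10 (log2 fold change -2.60, adjusted p = 0.00248). LOC109833178 had 4.596, 7.15 and 1.96 FPKM at H-25, against 38.2, 36.6 and 15.4 FPKM at H-10 (log2 fold change -2.49, adjusted p = 0.0033). The one receptor kinase gene that was higher in all 6 fits was *MSP1*-like (LOC109841963), named after a rice gene of early anther development. It had 7.55, 11 and 6.61 FPKM at H-25, against 0, 0 and 0 FPKM at H-10 (adjusted p = 4.10e-05), and its mean at H-25 was at least 24.1-fold higher than 3 fragments in 1 H-10 library would give.

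Of 126 genes of calcium sensors and calcium-dependent kinases 8 were DEGs, all lower (6.35% of the list, median -0.27), 14 without H-25 r2 and 4 without H-25 r3. The median log2 difference from the H-10 mean was -0.43, -0.08 and -0.38 in H-25 r1, r2 and r3, against -0.10 to 0.06 at H-10. *PBP1* (LOC109846487), of a small calcium-binding protein that in Arabidopsis binds the kinase PINOID, had 15.7, 11.5 and 6.82 FPKM at H-25, against 73, 67.7 and 33.5 FPKM at H-10 (log2 fold change -2.25, adjusted p = 0.0076). The *CML30* gene LOC109831172 had 0.36, 0.546 and 0.691 FPKM at H-25, against 12.99, 5.42 and 4.02 FPKM at H-10 (log2 fold change -2.33, adjusted p = 0.0152). It was not called without H-25 r1 or H-25 r3. In the MAP kinase cascade, which relays stress and touch signals, 2 of 32 genes were higher and 3 lower, 15.6% of the list beside 4.45% of all tested genes (3 and 4 without H-25 r2, 0 and 1 without H-10 r2 or H-25 r3, 0 and 2 without H-25 r1, and 0 and 4 without H-10 r3). *MKK9*-like (LOC109833819) had 5.86, 1.03 and 2.88 FPKM at H-25, against 12.7, 33.2 and 22.3 FPKM at H-10 (log2 fold change -2.55, adjusted p = 0.00859). The H-25 values of these genes lay below those of H-10 without overlap.

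Sucrose synthases split sucrose for wall and starch synthesis, and sugar transporters carry it between cells. Of 8 sucrose synthase genes 2 were DEGs, both lower, 25% of the list beside 4.45% of all tested genes (4 without H-25 r2, and 1 without H-10 r1, H-10 r2, H-25 r1 or H-25 r3). *Sucrose synthase 2*-like LOC109833647 had 13.4, 31.5 and 15.3 FPKM at H-25, against 92.4, 76.4 and 58.3 FPKM at H-10 (log2 fold change -1.94, adjusted p = 0.0054). LOC109840157 had 3.57, 14.3 and 5.76 FPKM at H-25, against 33.3, 24.8 and 21.9 FPKM at H-10 (log2 fold change -1.81, adjusted p = 0.0198). This second gene was not called without H-10 r1, H-10 r2, H-25 r1 or H-25 r3. The most abundant member, LOC109820065, had 431, 1438 and 493 FPKM at H-25, against 927, 621 and 311 FPKM at H-10, with the top value in H-25 r2. Cell wall invertase LOC109823677, which splits sucrose outside the cell, had 51.1, 122 and 46.7 FPKM at H-25, against 139, 237 and 228 FPKM at H-10 (log2 fold change -1.55, adjusted p = 0.0284) and was not called without H-10 r2, H-10 r3, H-25 r1 or H-25 r3.

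Of 36 sugar transporter genes 7 were DEGs, all lower (19.4% of the list, median -0.39), and 27 had a negative difference. The count was 11 without H-25 r2, 3 without H-25 r3 and 1 without H-10 r2 or H-25 r1. The median log2 difference from the H-10 mean was -0.49, -0.10 and -0.61 in H-25 r1, r2 and r3, against -0.08 to 0.12 at H-10. *ERD6-like 16* (LOC109848366), of a family of vacuolar sugar carriers, had 1.26, 1.47 and 1.43 FPKM at H-25, against 8.604, 11.1 and 18.1 FPKM at H-10 (log2 fold change -2.45, adjusted p = 7.21e-04, standard error 0.26) and was the one member lower in all 6 fits. *SWEET14*-like (LOC109826275), of the carriers that let sugar out of cells, had 2.699, 12.2 and 1.43 FPKM at H-25, against 35.4, 33.3 and 17.6 FPKM at H-10 (log2 fold change -2.54, adjusted p = 0.0139). *sugar transport protein 14* (LOC109839965) had 10.9, 32.2 and 8.19 FPKM at H-25, against 55.8, 65.6 and 50.5 FPKM at H-10 (log2 fold change -1.91, adjusted p = 0.0107). Both were not called without H-10 r2 or H-25 r1, and SWEET14-like not without H-25 r3. In both H-25 r2 lay closest to H-10.

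Transporters of nitrogen and of minerals had lower DEGs as well. Of 111 genes of amino acid, nitrate, ammonium and peptide transporters 9 were DEGs, all lower, 8.11% of the list beside 4.45% of all tested genes (19 lower and 2 higher without H-25 r2, 6 without H-10 r1, 4 without H-10 r2 or H-25 r1, and 3 without H-25 r3). *NRT1/PTR 6.3*-like (LOC109839437), of the nitrate transporter and sensor known in Arabidopsis as NRT1.1, had 1.94, 2.81 and 2.51 FPKM at H-25, against 14.1, 39.97 and 25.5 FPKM at H-10 (log2 fold change -2.90, adjusted p = 0.00101). Of 133 genes of phosphate, sulfate and metal transport 11 were DEGs, all lower, 8.27% of the list (18 lower and 6 higher without H-25 r2, 5 without H-10 r1, 3 without H-10 r2, 4 without H-25 r1 and 2 without H-25 r3). *HIPP28*-like (LOC109843581), of metal-binding proteins, had 0.935, 6.29 and 1.53 FPKM at H-25, against 10.4, 17.6 and 22.4 FPKM at H-10 (log2 fold change -2.38, adjusted p = 0.00841). Both genes were lower in every H-25 library than in any H-10 library.

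Ethylene is made from ACC (1-aminocyclopropane-1-carboxylate), which ACC synthase produces and ACC oxidase converts, and genes of both steps changed. Of 29 genes of ethylene synthesis and signalling 1 was higher and 3 were lower, 13.8% of the list beside 4.45% of all tested genes (1 and 5 without H-25 r2, and 1 and 2 without H-10 r2 or H-25 r3). *ACC oxidase 1*-like (LOC109828066) had 112, 53.3 and 90.3 FPKM at H-25, against 14.3, 3.81 and 3.04 FPKM at H-10, and was higher in each H-25 library (log2 fold change 3.62, adjusted p = 0.00146). Another ACC oxidase-like gene, LOC109841065, had 3.41, 3.01 and 1.802 FPKM at H-25, against 21.1, 12.1 and 14.4 FPKM at H-10 (log2 fold change -2.17, adjusted p = 0.00546), and an ACC synthase-like gene, LOC109837839, had 1.404, 2.62 and 2.96 FPKM at H-25, against 15.8, 13.8 and 9.07 FPKM at H-10 (log2 fold change -2.06, adjusted p = 0.00338). Genes of the oxidase step thus went both ways, and at H-25 the ACC oxidase 1-like gene had the higher FPKM of the 2 oxidase genes in each library.

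Abscisic acid signals through kinases of the SnRK2 family, which some phosphatases of type 2C (PP2Cs) hold inactive. The descriptions of *PP2C 23* and *PP2C 15* below do not name abscisic acid, and whether these act on such kinases was not tested. Of 96 genes of abscisic acid turnover and signalling 2 were higher and 9 lower (11.5% of the list), 4 and 9 without H-25 r2, 1 and 7 without H-25 r1, and 1 and 5 without H-25 r3. *PP2C 23* (LOC109833951) had 1.88, 0.487 and 1.68 FPKM at H-25, against 17.2, 15.2 and 10.5 FPKM at H-10 (log2 fold change -2.73, adjusted p = 0.00102). *PP2C 15* (LOC109841097) had 13.5, 17.5 and 11.1 FPKM at H-25, against 48.7, 58.9 and 31.4 FPKM at H-10 (log2 fold change -1.63, adjusted p = 0.0091), which was not called without H-25 r3. *Abscisic acid 8'-hydroxylase 1*-like (LOC109837794), of the breakdown of the hormone, had 0.12, 2.54 and 0.23 FPKM at H-25, against 3.12, 10.3 and 8.01 FPKM at H-10 (log2 fold change -2.14, adjusted p = 0.0189) and was not called without H-10 r2, H-10 r3, H-25 r1 or H-25 r3. The *PP2C* and *SnRK2* genes of the study's qPCR primers were not DEGs. *PP2C* (LOC109822304) had 67, 73.8 and 72.6 FPKM at H-25, against 41.5, 37.1 and 38.9 FPKM at H-10 (log2 fold change 0.84, adjusted p = 0.0548). *SnRK2* (LOC109820020) had 116, 91.3 and 113 FPKM at H-25, against 69.5, 52.3 and 49.3 FPKM at H-10 (log2 fold change 0.90, adjusted p = 0.0128), every H-25 library above every H-10 library in both.

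Jasmonate acts by the removal of TIFY (JAZ) repressors, whose genes are themselves induced by it. Of 35 genes of jasmonate synthesis and signalling 2 were higher and 6 lower (22.9% of the list), and none was called in all 6 fits without 1 library. The lower count was 7 without H-10 r3 or H-25 r2, 5 without H-25 r1, 3 without H-10 r1, 1 without H-10 r2 and 0 without H-25 r3, and at most 2 were higher in any of these fits. *TIFY 5A*-like LOC109849829 had 10.2, 0 and 2.41 FPKM at H-25, against 53.9, 47.9 and 14.8 FPKM at H-10 (log2 fold change -3.37, adjusted p = 0.0167). It was not called without H-10 r2 or H-25 r3. *TIFY 10c*-like LOC109845676 had 26.3, 3.34 and 16.6 FPKM at H-25, against 135, 111 and 56.1 FPKM at H-10 (log2 fold change -2.90, adjusted p = 0.02). It was not called without H-10 r1, H-10 r2 or H-25 r3. H-25 r2 was the lowest library in both, as it was within H-25 in 125 of the 592 lower DEGs.

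Auxin genes were grouped by role. Of 20 *SAUR* genes, which are early auxin-response genes of growth, 2 were higher (10% of the list, beside 4.45% of all tested genes), with a median of 0.65 over the list (5 without H-10 r1, and 0 without H-10 r2, H-25 r1 or H-25 r3). *SAUR50*-like LOC109826324 had 68.4, 43.5 and 57.8 FPKM at H-25, against 20.2, 5.802 and 12.9 FPKM at H-10 (log2 fold change 2.17, adjusted p = 0.013). LOC109837067 had 132, 52.98 and 121 FPKM at H-25, against 26.96, 22.5 and 39.8 FPKM at H-10 (log2 fold change 1.68, adjusted p = 0.0346). Neither was called without H-10 r2, H-25 r1 or H-25 r3, and LOC109837067 not without H-10 r1. Of 34 genes of auxin metabolism 1 was higher and 2 were lower (8.82%), and the lower count was 0 or 1 in each fit without 1 library. The higher one, *DAO*-like LOC109839952, of the enzymes that oxidise auxin, had 7.89, 4.56 and 5.54 FPKM at H-25, against 1.57, 2.16 and 1.26 FPKM at H-10 (log2 fold change 1.38, adjusted p = 0.00583). The lower ones were genes of hydrolases that free auxin from its amino acid conjugates. *ILR1*-like 6 (LOC109827495) had 5.27, 1.83 and 4.71 FPKM at H-25, against 30.3, 15.1 and 6.29 FPKM at H-10 (log2 fold change -1.73, adjusted p = 0.048) and, of the fits without 1 library, passed only in that without H-10 r3. *ILR1*-like 3 (LOC109838319) had 3.14, 2.99 and 4.93 FPKM at H-25, against 9.35, 9.89 and 9.33 FPKM at H-10 (log2 fold change -1.19, adjusted p = 0.0332) and passed only in that without H-25 r2.

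Of 21 *Aux/IAA* genes, of repressors of the auxin response, 1 was higher (4.76%, with 2 without H-10 r1 or H-25 r2, and 0 without H-10 r2, H-25 r1 or H-25 r3). It was *22D*-like LOC109845145, with 5.29, 2.32 and 5.24 FPKM at H-25, against 2.24, 0.313 and 0.511 FPKM at H-10 (log2 fold change 1.45, adjusted p = 0.0303), and it passed only without H-10 r1 or H-25 r2. Of 20 auxin transporter genes 1 was higher (5%), *auxin transporter-like 2* (LOC109836865), with 7.57, 1.72 and 11.5 FPKM at H-25, against 0.419, 0.677 and 1.37 FPKM at H-10 (log2 fold change 1.90, adjusted p = 0.0279). It passed only without H-10 r3 or H-25 r2, and the list had no DEG without H-10 r2 or H-25 r3. The stages did not overlap in these genes.

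Gibberellins are switched off by gibberellin 2-oxidases. Of 18 genes of gibberellin metabolism and signalling 1 was lower, 5.56% of the list near the 4.45% of all tested genes. It was *GA2ox* (LOC109823202, chromosome 1, 40495642 to 40498512), a gibberellin 2-beta-dioxygenase 1-like gene. It had 5.09, 5.53 and 2.47 FPKM at H-25, against 24.2, 19.1 and 7.17 FPKM at H-10 (log2 fold change -1.63, adjusted p = 0.0261), without overlap, and was not called without H-10 r1, H-10 r2, H-25 r1 or H-25 r3. Its qPCR primers, and those of *SnRK2* (chromosome 8, 6510057 to 6513807), were designed by the study and are shown because these genes are the ones of its primer list with an adjusted p under the threshold and no shared primers.
GA2ox forward: gacatcggctggctggagtat
GA2ox reverse: accgtgacctgaggaacaagg
SnRK2 forward: tctgcatggctggtcgattca
SnRK2 reverse: cgctatgtaggctggagttcct
The other genes of the primer list were *UBCE* (LOC109832941), a reference gene with 211, 225 and 193 FPKM at H-25, against 209, 195 and 208 FPKM at H-10, and *PAI1*, *TAR2*, *DAO* (LOC109839668), *AUX1*, *PIF3* and *PIF4*, none of which was a DEG, and *SAUR-1*, which is the *SAUR50*-like gene LOC109826324.

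The counts of 3 broad groups turned on H-25 r2. Genes of the proteins of cytosolic ribosomes had 37 DEGs among 207 tested, all higher (17.9% of the list, median 0.85, and 0.62 in TPM), and 201 had a positive difference. Without H-25 r2 the higher count was 142, and it was 10 without H-10 r1, 4 without H-10 r2, 3 without H-25 r1, 4 without H-25 r3 and 43 without H-10 r3. With only these 6 libraries in the limma model 0 were called, and 7 with TPM. With all 12 libraries 48 were higher at an unadjusted p and 41 with limma voom. Their FPKM summed to 97893, 51500.0 and 87171 at H-25 and to 35434, 40574 and 48874 at H-10. *L35a-4* (LOC109841438) had 849, 551 and 825 FPKM at H-25, against 234, 263 and 299 FPKM at H-10 (log2 fold change 1.46, adjusted p = 0.00252) and was called in all 6 fits, as were 3 of the list in all.

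Mitotic cyclins, kinases and spindle proteins had 0 DEGs among 109 tested genes with limma and no library left out, and 25 higher and 3 lower without H-25 r2. At an unadjusted p of at most 0.05 6 were higher and 1 lower with no library left out, and with limma voom 1 was higher. *Cyclin-D1-1*-like (LOC109822588), which drives entry into the cell cycle, had 219.6, 91.4 and 207 FPKM at H-25, against 43.4, 57.3 and 88.6 FPKM at H-10 (log2 fold change 1.40, adjusted p = 0.11), and H-25 r2 stood nearest to H-10. Histone genes had 1 higher of 31, 3.23% of the list beside 4.45% of all tested genes (7 higher and 1 lower without H-25 r2, 0 without any other single library). Genes of lignifying tissue showed the opposite, as the 21 markers of xylem and fibres had 0 DEGs with limma and all libraries (1 lower at an unadjusted p, 0 with limma voom) and 7 lower ones without H-25 r2. In this list the median log2 difference from the H-10 mean was -0.74 in H-25 r1, 0.59 in replicate 2 and -0.95 in replicate 3.

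Photosynthesis genes showed the same direction in nearly all members and few DEGs. Of 65 genes of photosystems, antennae and the Calvin cycle 60 had a positive difference, beside 49.9% of all tested genes, with a median of 0.56 (0.34 in TPM). Of them 1 was a DEG, 1.54% of the list beside 4.45% of all tested genes. It was *PSB27-H1* (LOC109834222) of photosystem II repair, with 59.7, 63.6 and 50.96 FPKM at H-25, against 22.5, 44.4 and 21.1 FPKM at H-10 (log2 fold change 1.04, adjusted p = 0.0476), which was not called without H-10 r1, H-10 r3 or any of the H-25 libraries. H-10 r2 lay near the H-25 libraries in this list (0.46 against 0.51, 0.78 and 0.45 at H-25), and H-10 r1 and r3 had 0.07 and -0.49. Among transcription factors, *GATA22* (LOC109819930), known in Arabidopsis from chloroplast development, had 1.49, 1.304 and 1.43 FPKM at H-25, against 0, 0.11 and 0.0599 FPKM at H-10 (log2 fold change 1.19, adjusted p = 0.00386). *CONSTANS-LIKE 16*-like (LOC109845425), of a family of light-response factors, had 6.498, 8.88 and 5.89 FPKM at H-25, against 2.13, 2.89 and 2.68 FPKM at H-10 (log2 fold change 1.17, adjusted p = 0.00906).

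**Figure D4:**
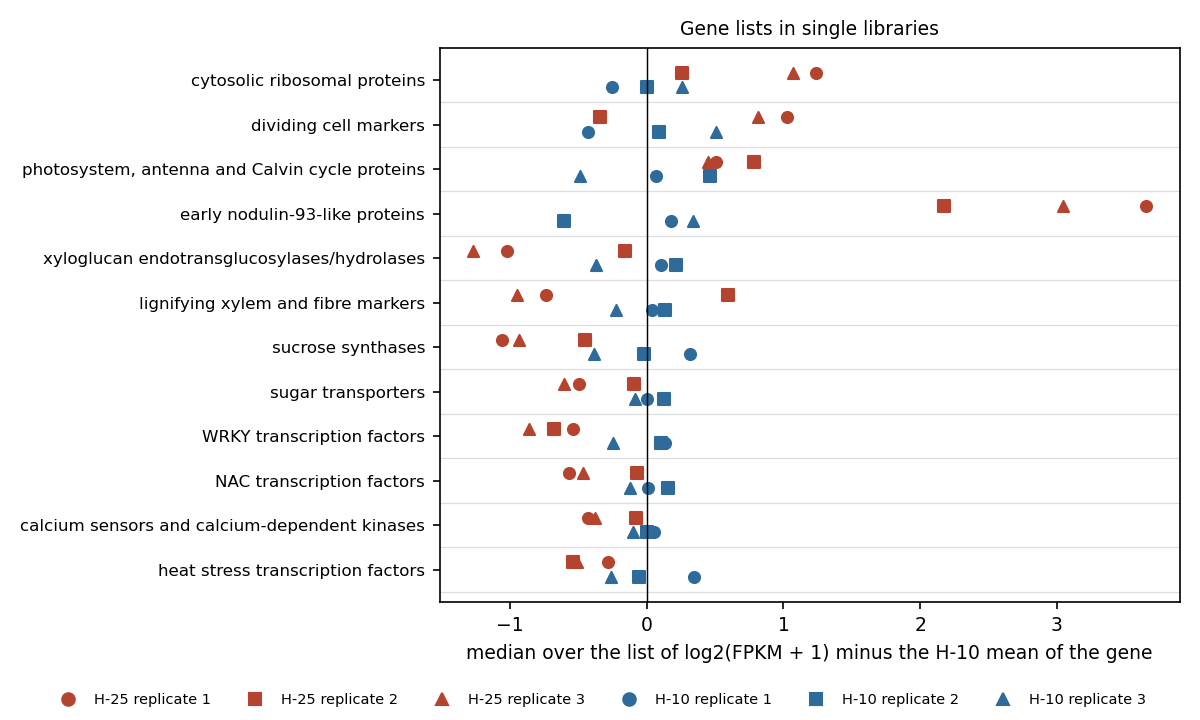
For 12 gene lists, the median over the list of log2(FPKM + 1) minus the mean of each gene at H-10, in the 3 H-25 (red) and 3 H-10 (blue) libraries. In the ribosomal protein, dividing cell and xylem lists the H-25 r2 square stands away from the H-25 circle and triangle. It also does so in the XTH, sugar transporter, NAC and calcium lists. In the XTH, NAC and calcium lists, at -0.16, -0.07 and -0.08, the square lies within the range of the H-10 symbols. In the WRKY list it lies between the H-25 circle and triangle.

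**Figure D5:**
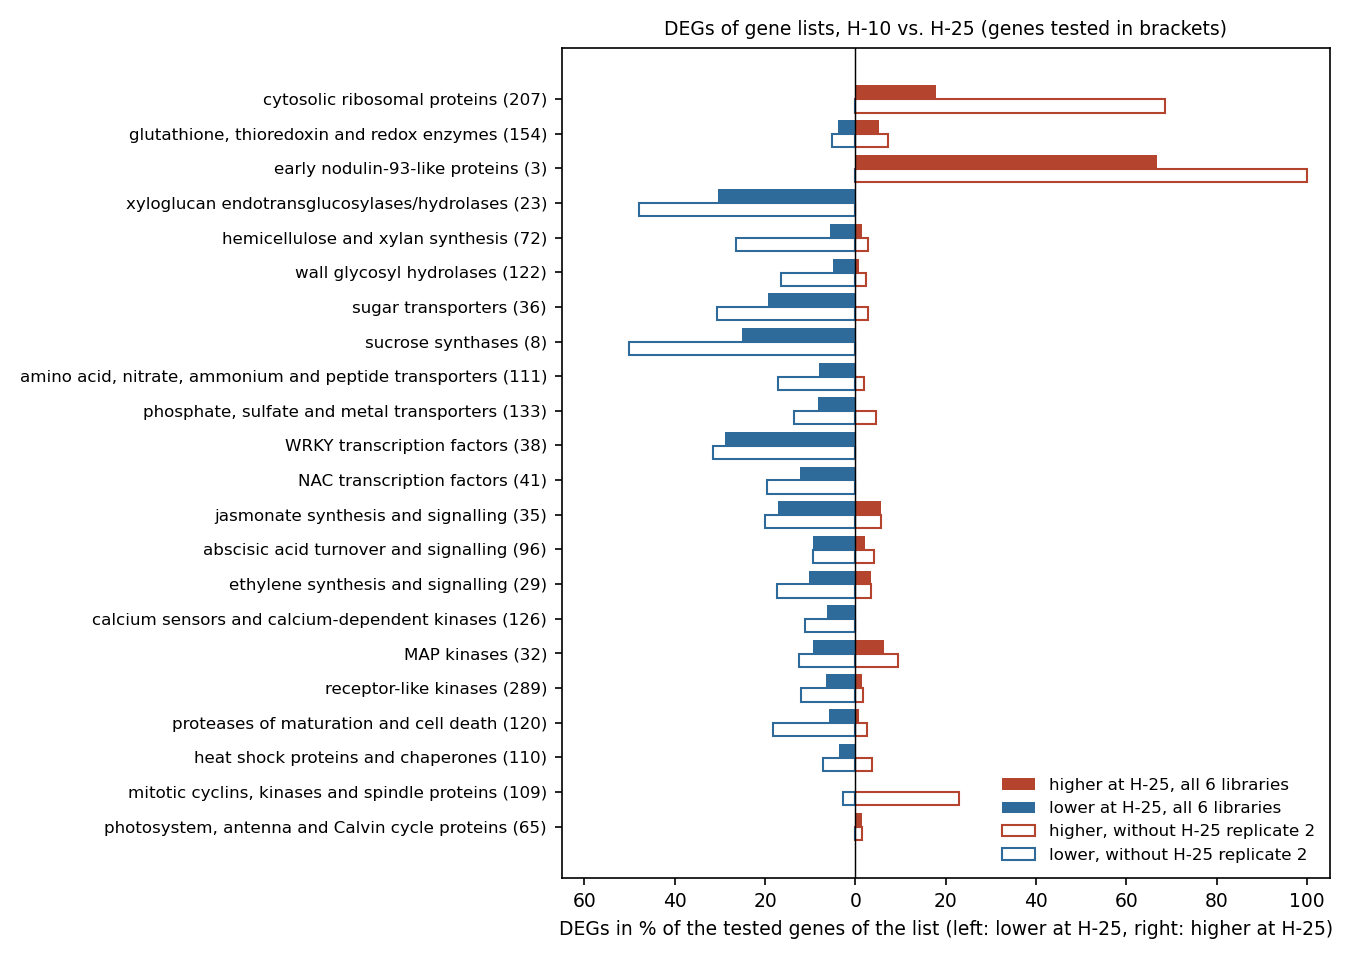
DEGs as a percentage of the tested genes of each list, lower at H-25 to the left and higher to the right. Filled bars are from the model of all 12 libraries, with all 6 of these stages kept, and open bars are without H-25 r2. The filled bars reach furthest left for the XTH list (7 of 23) and the WRKY list (11 of 38), and the ribosomal protein list grows most on the right when that library is left out (37 and 142 of 207).

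Heat shock genes, which respond to stress and to handling, had 4 DEGs among 110 tested genes, all lower, a share of 3.64% below the 4.45% of all tested genes (8 lower and 4 higher without H-25 r2, 2 lower without H-10 r1 or H-10 r2, and 0 without H-25 r1 or H-25 r3). Of 16 heat stress transcription factor genes 3 were lower, 18.75% of the list (1 without H-10 r2 and 0 without H-25 r3). *HsfA4b*-like (LOC109848423) had 3.396, 2.96 and 1.72 FPKM at H-25, against 18.3, 11.1 and 6.39 FPKM at H-10 (log2 fold change -1.73, adjusted p = 0.00987). It was not called without H-25 r3. The 18.1 kDa class I heat shock protein-like gene LOC109829203 had 11.5, 20.1 and 9.13 FPKM at H-25, against 259, 32.2 and 47.01 FPKM at H-10 (log2 fold change -2.42, adjusted p = 0.0342), with H-10 r1 far above the rest, and was not called without H-25 r1 or H-25 r3. The part of handling or of stress before harvest in the other DEGs was not tested.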

How the data were processed

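Illumina libraries that keep the strand were made from total RNA of stem segments at 4 stages, 3 libraries each, of which H-25 and H-10 are compared here. Per the submitters' processing notes, DESeq2, featureCounts, StringTie and HISAT2 were used. The study's methods state the criteria applied with DESeq2, a minimum fold and a maximum p-value, whereas the genome build and the settings of the other tools are not given in the sources used here. Values were deposited as FPKM, which the authors scaled by gene length and library, in a table that also has 4 columns of group means, which were not used here. All 32237 genes with a RefSeq ID matched Aspof.V1, a RefSeq assembly, in start and end, and coordinates refer to it. FPKM times gene length was a whole multiple of 1 step per library (tolerance 0.01) for 100% of values, which gave back the fragments and the depth, and limma voom on these fragments called 958 DEGs.

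Genes that reached 1 FPKM in 3 or more of the 12 libraries were fitted as log2(FPKM + 1), with a pseudocount of 1, by limma 3.58.1 in R 4.3.3 (1 mean per stage, all 12 libraries in 1 model, eBayes with a trend), since FPKM is not a count. The adjusted p is that of Benjamini and Hochberg over 20352 genes. Python 3.11.15 with numpy 2.4.6 and pandas 2.3.3 was used for all else, and figures were drawn with matplotlib 3.10.9. Replicate numbers were not taken to pair the libraries in the main model. The alternatives were limma voom on the fragments, TPM, median-of-ratios rescaling, eBayes without a trend, a pseudocount of 0.1 or 0.5, a minimum mean FPKM of 5, no filter, no fold criterion, an unadjusted p, a replicate block, a model of only the 6 libraries, and each of the 6 libraries left out in turn, where a stage of 2 libraries was assumed to vary like the others.

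The 78 gene lists were built from words in RefSeq descriptions, which 13424 tested genes carry. The genes named are the 15 largest rises and falls that have a description, do not overlap and average 10 FPKM or more in 1 stage, the 3 DEGs of largest change and the highest member of each list, the genes of the primer list, DEGs at 0 in 1 stage with at least 2 FPKM in the other, and the 5 highest genes over 4 times above and below in H-25 replicate 2. Of these 287 genes, 202 were DEGs. A share of them is described, and any other gene is named as chosen after its values were seen. The members and lists were chosen with earlier results of these data known. GO and KEGG terms were not used here.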

Additional observations from a re-analysis of the deposited data

How the results depend on the processing

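The number of DEGs (905, with 313 higher and 592 lower at H-25) was 205 with only the 6 libraries in the model (81 higher, 124 lower), 1631 with an unadjusted p (598 higher, 1033 lower) and 1284 without the fold criterion (542 higher, 742 lower). With TPM 188 were higher and 1008 lower, 1196 in all, 779 of them among the 905. Leaving out 1 library gave 338 to 2054 DEGs, 96 to 895 higher and 238 to 1159 lower. The other alternatives gave 663 to 1043 DEGs, 663 without the filter and 1043 with a replicate block (360 higher, 683 lower). Same-numbered libraries of both stages had correlations of 0, 0.156 and 0.239 of their deviations, and differently numbered ones of -0.196 to 0.09. Whether same-numbered libraries share a batch is not known from the sources used here, and the main model did not pair them. Of the 202 named DEGs, 0 changed direction under any alternative, which their choice as large changes in these same libraries largely fixed in advance. Of the same 202 genes, 139 lost the call with only the 6 libraries, 57 without the filter and 6 with the replicate block. Without 1 library, 5 (H-25 replicate 2) to 116 (H-25 replicate 3) lost it. At up to 0.0713 FPKM for 1 fragment in a gene of 1 kb, values near this size rest on single fragments.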

Other observations

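Several genes not described above changed too, and those named here and in the next paragraph were chosen after their values were seen. Alcohol dehydrogenase 1, which regenerates NAD when oxygen is short, was higher at H-25 in 2 genes. LOC109823954 had 1094, 662 and 850.0 FPKM at H-25, against 322, 217 and 315 FPKM at H-10 (log2 fold change 1.60, adjusted p = 0.00688, limma), and LOC109830273 had 476, 332 and 388 FPKM at H-25, against 129.9, 86.9 and 119 FPKM at H-10 (log2 fold change 1.83, adjusted p = 0.0091). The glycolytic gene of a cytoplasmic fructose-bisphosphate aldolase 1 (LOC109836704) had 2668, 2359 and 2314 FPKM at H-25, against 762, 867 and 1091 FPKM at H-10 (log2 fold change 1.44, adjusted p = 0.00399). A hemoglobin-2-like gene (LOC109832115), of oxygen-binding proteins of plants, had 0.632, 1.53 and 0.0759 FPKM at H-25, against 3.62, 13.2 and 6.86 FPKM at H-10 (log2 fold change -2.29, adjusted p = 0.00819) and so went the other way. The 4 genes were called in all 6 fits without 1 library.

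Genes of PINOID kinases, which in Arabidopsis steer auxin carriers, were higher at H-25. LOC109850438 had 11.6, 6.697 and 10.3 FPKM at H-25, against 1.57, 1.59 and 2.93 FPKM at H-10 (log2 fold change 1.80, adjusted p = 0.00665), and LOC109845572 had 19.3, 9.78 and 14.5 FPKM at H-25, against 2.83, 1.17 and 4.05 FPKM at H-10 (adjusted p = 0.00461, log2 fold change 2.11). The gene of *GLK1* (LOC109825394), a regulator of chloroplast genes in other plants, had 2.404, 2.27 and 2.06 FPKM at H-25, against 0, 0.217 and 0.275 FPKM at H-10 (adjusted p = 0.0107, log2 fold change 1.48). Both kinase genes were lowest within H-25 in r2 and did not overlap with H-10. Acyl-activating enzyme 1 genes of peroxisomes fell, with LOC109837233 at 1.83, 1.82 and 0.833 FPKM at H-25, against 13.02, 26.04 and 10.5 FPKM at H-10 (log2 fold change -2.74, adjusted p = 9.72e-04) and LOC109834327 at 0.656, 0.448 and 0.252 FPKM at H-25, against 8.75, 13.8 and 4.26 FPKM at H-10 (log2 fold change -2.66, adjusted p = 0.00121).

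DEGs at 0 in every library of 1 stage and at a mean of at least 2 FPKM in the other numbered 20 with H-10 at 0 and 20 with H-25 at 0. Of these, 6 and 15 were called in all 6 fits without 1 library, and 3 and 1 had a description. Set against a floor of 3 fragments per library, their means were at least 6.59-fold to at least 65.2-fold higher and at least 3.48-fold to at least 69.6-fold lower at H-25. An *aconitate hydratase*-like gene (LOC109827586), named after an enzyme of the citrate cycle, had 7.82, 6.11 and 8.94 FPKM at H-25, against 0, 0 and 0 FPKM at H-10, at least 65.2-fold higher at H-25, and was not called without H-25 r3. A pair of mannose-specific lectin-like genes overlap at their ends on the same strand of chromosome 7 (1593434 to 1594633), so how shared reads were counted bears on both. LOC109850770 had 0, 0 and 0 FPKM at H-25, against 7.68, 2.19 and 6.91 FPKM at H-10, and was at least 14.4-fold lower at H-25. LOC109850771 had 0, 0 and 0.0888 FPKM at H-25, against 1.695, 2.403 and 5.22 FPKM at H-10 (log2 fold change -1.90, adjusted p = 0.00827). Both lectin-like genes passed the filter of 1 FPKM in 3 libraries only through H-10, where they were high. Outside H-10 only H-60 replicate 1 reached 1 FPKM, with 1.95 in LOC109850770 and 1.06 in LOC109850771.

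H-25 r2 had 171 genes more than 4 times above and 191 more than 4 times below both other H-25 libraries, with FPKM + 1, and H-10 r1 had 156 and 98 against its fellows. The fasciclin-like arabinogalactan protein 9 gene (LOC109835209), of cell surface glycoproteins, had 120.5, 630.0 and 91.3 FPKM at H-25, against 364, 442 and 336 FPKM at H-10. A repetitive proline-rich cell wall protein gene (LOC109836881) had 12.2, 468 and 39.7 FPKM at H-25, against 471, 272 and 81.6 FPKM at H-10. The gene of *DIR1* (LOC109826747), a lipid-transfer protein of systemic defence in Arabidopsis, had 814, 90.1 and 586 FPKM at H-25, against 139, 50.8 and 183 FPKM at H-10. H-25 r2 lay above every H-10 library in the arabinogalactan protein gene and within the range of H-10 in the other genes.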
